A study of Mus musculus with 6 samples.

Results

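The comparison described here set integrin α6-positive basal cells of ventral epidermis from mice at 16 days post-coitus (dpc) against the same cells from virgin mice. It covered the 10759 genes whose detection call was present throughout at least 1 of these groups, out of 18193 genes on the array. Of these, 9930 were present on both arrays of both groups, 363 were kept through the virgin arrays and 466 through the 16 dpc arrays. Genes kept through 1 group alone were selected by detection in that group, so those named below are given with their detection. All mice were female C57BL/6 animals, 10 weeks old, with no transgene and no treatment named. The virgin ventral, 16 dpc ventral and 16 dpc dorsal groups had 2 arrays each, and the dorsal arrays are given as context. Whole skin was trypsinized overnight in the cold, and live cells that bound an antibody to integrin α6, the receptor that ties basal keratinocytes to the basement membrane, were sorted. The sort named no marker against other cells that carry this integrin, and the labels do not say whether an array held 1 mouse, a pool or separate mice, so p-values measure only the spread between these arrays.

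The epidermis is renewed by basal keratinocytes, which divide on the basement membrane and move upwards as they switch on the genes of the barrier. A dividing cell has to make nucleotides, proteins and membranes, and the genes for these tasks form large families that are read together here. Prolactin, placental lactogens and growth hormone signal through JAK2 and STAT5, and SOCS2 and CISH are feedback inhibitors that this pathway switches on.

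The sorted cells carried the transcripts of basal keratinocytes. Krt5 stood at 35042 and 35577 in virgin and 30169 and 36377 in 16 dpc cells. Krt14 stood at 25952 and 26256 in virgin and 26244 and 31603 in 16 dpc cells. Itga6, which encodes the sorted integrin, stood at 17403 and 16493 in virgin and 15226 and 16846 in 16 dpc cells. These are MAS5 signals, a linear brightness scaled to a trimmed mean near 500 on every array, and values are given as replicate 1 and replicate 2. All 13 basal markers were present on all 4 ventral arrays, but so were all 12 suprabasal markers, among them Krt10 at 43669 and 40893 in virgin and 35279.7 and 40869 in 16 dpc cells. The suprabasal markers summed to 167432 and 167056 in virgin and 138264 and 151639 in 16 dpc cells. Of these markers 10 of 12 were lower (median -0.32), 4 (33.3%) over 1.5-fold without overlap, whereas Krt2 stood higher at 386 and 484 in virgin and 1899 and 1252 in 16 dpc cells. Markers of other cells were partly present. On the ventral arrays, 5 or 6 of 12 fibroblast markers, 2 to 4 of 12 markers of endothelium and smooth muscle, 1 to 3 of 9 melanocyte markers and 0 or 1 of 6 markers of fat and red cells were called present. Among them Pecam1, Cdh5, Adipoq, Hba-a1, Pmel, Lum and Pdgfra were absent on all 4 ventral arrays, whereas Col6a1, Vim, Thy1, Acta2 and Mitf were present on all 4, and Dcn on both virgin arrays and neither 16 dpc array. The fibroblast markers summed to 1459.8 and 1793 in virgin and 4862 and 5965 in 16 dpc cells, of which Thy1, a gene past the threshold, made up 3086 and 4216 at 16 dpc. Vim stood at 462 and 396 in virgin and 1077 and 746 in 16 dpc cells. The mammary and antigen-presenting cell sums also moved with the groups, whereas the hair follicle sums of the groups overlapped. The 16 mammary and milk markers summed to 1573 and 2369 in virgin and to 14178 and 2697 in 16 dpc cells, so the milk signal sat mainly on 1 of the 16 dpc arrays, although Lalba was absent throughout. The 14 markers of Langerhans and other antigen-presenting cells summed to 4639 and 3072 in virgin and 8997 and 6362 in 16 dpc cells. The 12 epidermal T cell markers summed to 1154 and 1761 in virgin and 1326 and 1030 in 16 dpc cells. Of these, Cd3g, Ptprc, Itgae and Zap70 were present on all 4 ventral arrays, 3 of them higher and Zap70 lower. Ptprc stood at 124 and 91.2 in virgin and 205 and 156 in 16 dpc cells. Zap70 stood at 651 and 1353 in virgin and 656 and 418 in 16 dpc cells. The 15 hair follicle markers summed to 14418 and 28098 in virgin and 18657 and 7459 in 16 dpc cells, with the lowest sum on the second 16 dpc array. That array also had the higher ratio of 3′ to 5′ actin signal, 3.90 against 1.78 on the other 16 dpc array and 2.46 and 2.15 on the virgin arrays. The part of these cells and of RNA quality in the results below was not tested, and fewer cells of a type cannot be told apart from less RNA per cell.

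**Figure D1:**
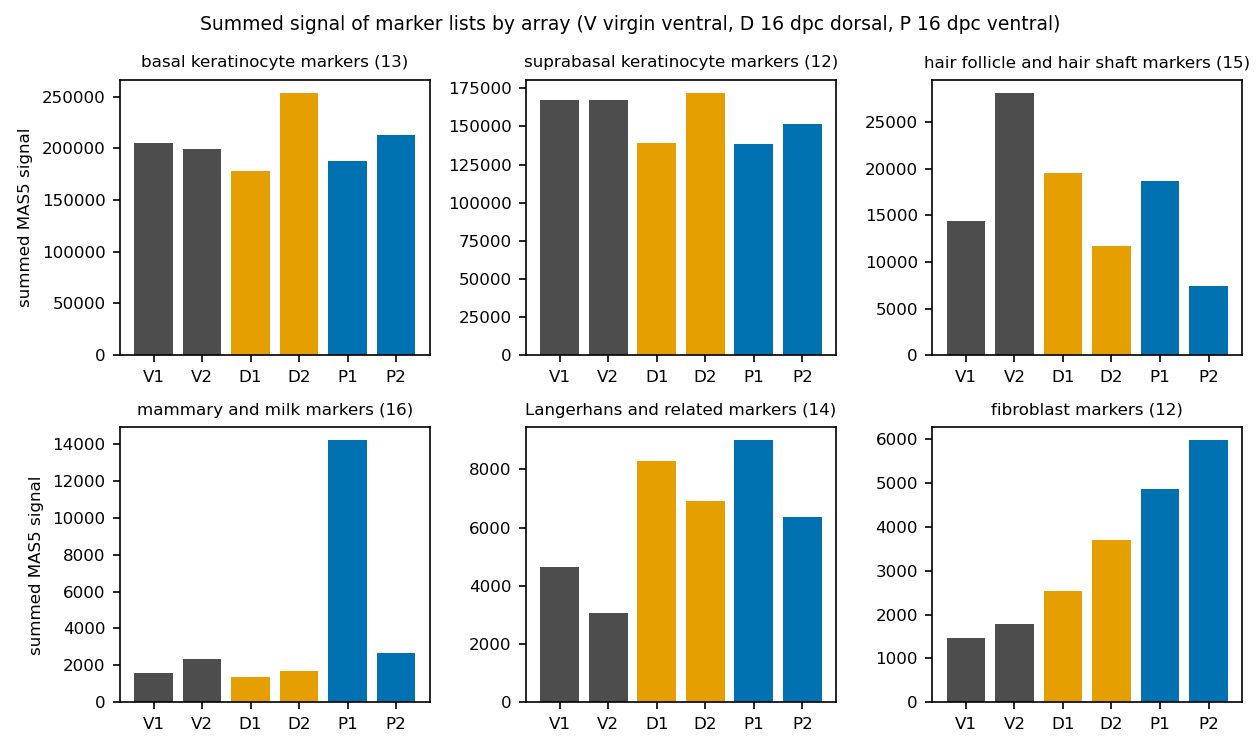
Summed MAS5 signal (linear axis from 0) of 6 marker lists on each of the 6 arrays, with the number of genes of each list on the array in brackets. Bars are single arrays. The mammary and milk sum stands far above the others on the first 16 dpc ventral array, whereas the basal keratinocyte sums of the ventral groups overlap.

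Few single genes passed a test across the whole array, and far more differed without overlap. In limma's moderated test over 10993 genes with Benjamini-Hochberg adjustment, 15 genes rose in 16 dpc ventral cells, which is 0.136% of those tested, and 7 fell, which is 0.0637%. A fit that blocked on replicate number gave 54 (0.491%) higher and 32 (0.291%) lower, which held all 22 genes of the first fit. Deviations between replicates correlated at only 0.0145 between the virgin and 16 dpc ventral groups, but at 0.554 between the 16 dpc dorsal and ventral groups. No label says that the replicate numbers pair the samples, so the block is given as an alternative only. The genes said below to pass with it are not among the 22. The fit without block treats all 6 arrays as independent, and the ventral against dorsal p-values below come from it. Without the trend of variance on level, or with signals under 32 set to 32, 0 genes passed, although 1160 and 1231 genes had an unadjusted p under 0.05 in those limma fits, against 1280 with the trend and a floor of 1. Leaving out any 1 of the ventral arrays left 1 to 11 genes higher and 0 to 3 lower. A descriptive rule therefore stands beside the test for families: a gene is called over 1.5-fold without overlap where its mean log2 signal differed by more than that factor and both arrays of a group lay on the same side of both arrays of the other. This held for 502 genes higher at 16 dpc (4.67% of 10759) and 626 lower (5.82%). The median log2 fold change of all 10759 genes was 0.02, with 53.2% of genes higher and 46.8% lower, so a list of genes is read against these shares.

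The genes past the threshold are given here by role, each with its signal on every array, followed by limma's log2 fold change ± standard error and adjusted p over 2 against 2 arrays. Among signalling genes, Socs2, the feedback inhibitor of growth hormone and prolactin receptors, stood at 106 and 183 in virgin and 939 and 1003 in 16 dpc cells (log2 fold change 2.80 ± 0.28, adjusted p = 0.0142). Il4ra, the receptor chain for interleukin-4 and interleukin-13, stood at 504 and 419 in virgin and 1143 and 1276 in 16 dpc cells (log2 fold change 1.39 ± 0.21, adjusted p = 0.0479). Csf1r, the receptor for the macrophage growth factor CSF1 and a marker of Langerhans cells, stood at 399 and 249.7 in virgin and 1189.6 and 958 in 16 dpc cells (log2 fold change 1.76 ± 0.25, adjusted p = 0.0406), and its dorsal 16 dpc arrays at 1114 and 956 lay in the same range. No array of one ventral group reached into the range of the other for these 3 genes. Deptor, an inhibitor bound to the mTOR kinase, stood at 1508 and 1339 in virgin and 3795 and 4045 in 16 dpc cells (log2 fold change 1.46 ± 0.16, adjusted p = 0.0142), and 4 further detected probe sets of the gene moved the same way. On the falling side, Rspo3, a secreted enhancer of Wnt signalling, stood at 1086 and 877 in virgin and 241 and 276 in 16 dpc cells (log2 fold change -1.92 ± 0.20, adjusted p = 0.0142). The dorsal 16 dpc arrays kept Rspo3 at 787 and 778, and ventral against dorsal 16 dpc cells differed with adjusted p = 0.0276 in limma, a contrast with 5 genes (0.0455%) higher and 4 (0.0364%) lower. The fall rests on 1 probe set, since the other probe set of Rspo3 was absent on all 6 arrays and averaging both gave a log2 fold change of 0.27. Pkib, an inhibitor of protein kinase A, stood at 2648 and 3608 in virgin and 1020.2 and 912 in 16 dpc cells (log2 fold change -1.68 ± 0.18, adjusted p = 0.0142), and both 16 dpc arrays lay far below the lower virgin array. Pik3ip1, a brake on PI3-kinase, stood at 1209.6 and 1336 in virgin and 588 and 548 in 16 dpc cells (log2 fold change -1.16 ± 0.17, adjusted p = 0.0467). Nuak1, a kinase of the AMPK family, stood at 2792 and 3098 in virgin and 1484 and 1238 in 16 dpc cells (log2 fold change -1.12 ± 0.17, adjusted p = 0.0479).

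Further genes past the threshold encoded membrane proteins, a serpin and a transglutaminase. Of these only L1cam fell. Thy1, a glycolipid-anchored surface protein, had the smallest p and stood at 402 and 457 in virgin and 3086 and 4216 in 16 dpc cells (log2 fold change 3.07 ± 0.26, adjusted p = 0.0104), with 1347 and 2235 on the dorsal arrays. It is also 1 of the 12 fibroblast markers and made up 3086 and 4216 of their summed signal of 4862 and 5965 on the 16 dpc arrays. Of the 6 of these markers kept, 4 were higher, Thy1 among them, and 2 lower. The part of the fibroblast markers and of the epidermal T cell markers given above was not tested. Abcg2, an efflux pump for drugs and porphyrins, stood at 806 and 625 in virgin and 2548 and 2141 in 16 dpc cells (log2 fold change 1.72 ± 0.19, adjusted p = 0.0142). Adam8, a membrane-bound metalloprotease, stood at 289 and 284 in virgin and 986 and 998 in 16 dpc cells (log2 fold change 1.79 ± 0.19, adjusted p = 0.0142). Rhbdl3, of the rhomboid family, stood at 612 and 537 in virgin and 1537 and 1518 in 16 dpc cells (log2 fold change 1.41 ± 0.20, adjusted p = 0.0406). The dorsal 16 dpc arrays lay between the ventral groups for all 4 of these genes. Serpinb12, an epithelial serpin, stood at 71.8 and 132 in virgin and 735 and 563 in 16 dpc cells (log2 fold change 2.72 ± 0.39, adjusted p = 0.0406). Tgm3, the transglutaminase that crosslinks cornified envelope proteins, stood at 2036 and 1939.9 in virgin and 5647 and 6036 in 16 dpc cells (log2 fold change 1.55 ± 0.20, adjusted p = 0.0317) and at 1464 and 964 on the dorsal arrays, and ventral against dorsal 16 dpc cells differed with adjusted p = 0.0152 in limma. L1cam, an adhesion molecule of the immunoglobulin family, fell from 2560.4 and 2749 to 1243 and 1277 (log2 fold change -1.07 ± 0.15, adjusted p = 0.0396), and its decrease shrank to -0.39 when all probe sets were averaged.

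Bex1 showed the largest fold change of the genes past the threshold, with 164 and 141 in virgin and 10792 and 2880.2 in 16 dpc cells (log2 fold change 5.20 ± 0.55, adjusted p = 0.0142). Its 16 dpc arrays differed from each other more than those of any other riser. Ikzf4, a zinc finger transcription factor of the Ikaros family, stood at 159 and 142 in virgin and 573 and 653 in 16 dpc cells (log2 fold change 2.03 ± 0.25, adjusted p = 0.0276) and was called present on 1 virgin array. Coro2a, an actin-binding coronin, stood at 241 and 144 in virgin and 685 and 868 in 16 dpc cells (log2 fold change 2.05 ± 0.28, adjusted p = 0.0392). Dipk1a, a kinase-like protein of the endoplasmic reticulum, stood at 613 and 615 in virgin and 1759 and 1535 in 16 dpc cells (log2 fold change 1.42 ± 0.17, adjusted p = 0.0268). Metabolic genes changed in both directions. Phgdh, the first enzyme of serine synthesis, rose from 5735 and 4933 to 11192 and 11406 (log2 fold change 1.09 ± 0.15, adjusted p = 0.0392), whereas Scd2, a desaturase of fatty acids, fell from 1015 and 1238 to 409 and 355 (log2 fold change -1.56 ± 0.21, adjusted p = 0.0356). Smpdl3a, a phosphodiesterase related to acid sphingomyelinase, fell from 3480.3 and 3713 to 1604 and 1614 (log2 fold change -1.16 ± 0.15, adjusted p = 0.0297). Of the 22 genes, 10 had further probe sets that were detected, 16 in all, and all 16 moved with the probe set used.

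**Figure D2:**
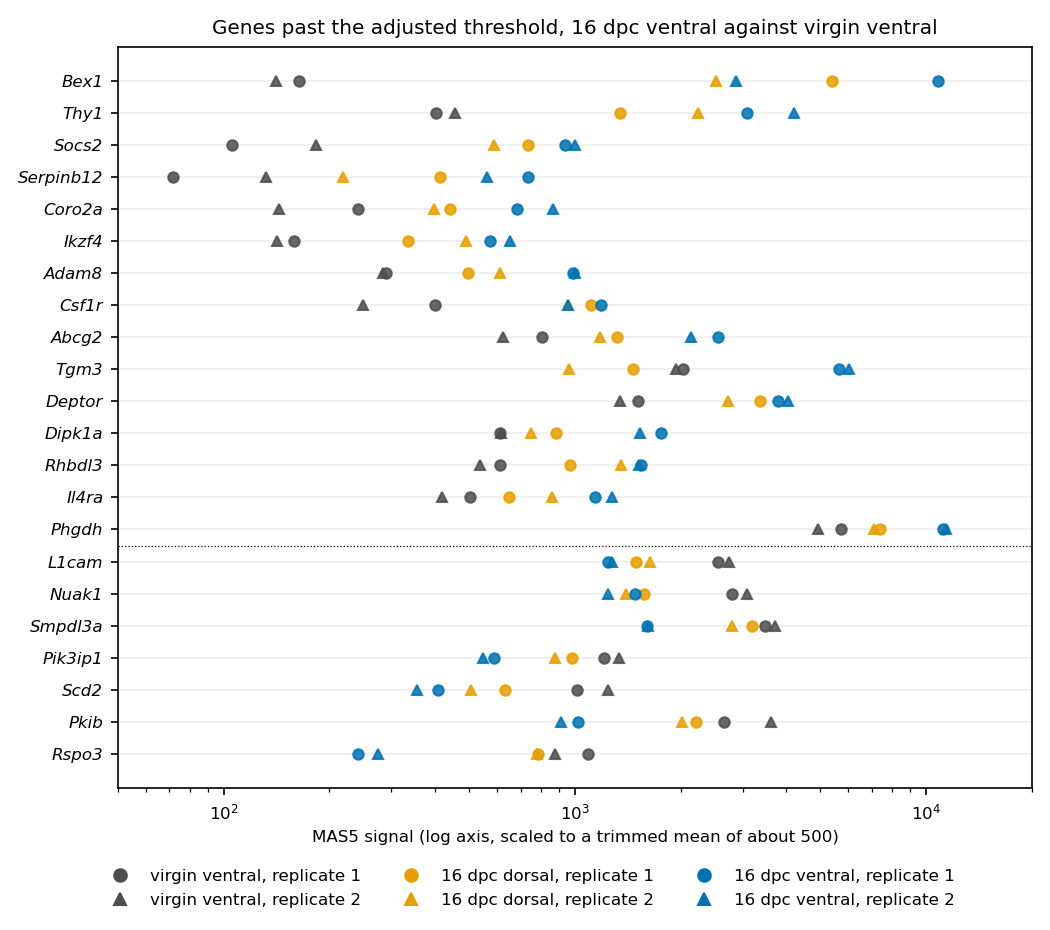
MAS5 signal (log axis) of the 22 genes past the adjusted threshold, 15 higher above the dotted line and 7 lower below it, with a circle for replicate 1 and a triangle for replicate 2 of each group. The ventral groups do not overlap for any of the 22 genes, and the dorsal 16 dpc arrays are drawn as context.

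In cytokine and growth factor signalling, Socs2 and Il4ra rose while the family as a whole moved little. The list of JAK-STAT receptors, STATs and SOCS proteins had 36 members kept of 44 on the array and a median log2 fold change of -0.15, with 4 members (11.1%) over 1.5-fold higher and 3 (8.33%) lower without overlap. Cish, the feedback inhibitor that competes for STAT5 docking sites, stood at 1283 and 1563 in virgin and 2598 and 3582 in 16 dpc cells (log2 fold change 1.11 ± 0.20, adjusted p = 0.0936). It passed with the replicate block (adjusted p = 0.0239). Pim1 and Pim3, which encode survival kinases downstream of STATs, were lower. Pim1 stood at 1660.2 and 1611 in virgin and 1002 and 709.7 in 16 dpc cells. Pim3 stood at 5102 and 4651 in virgin and 3324 and 3010.2 in 16 dpc cells. Il6ra, the interleukin-6 receptor, stood at 5987 and 5028 in virgin and 3534 and 2174 in 16 dpc cells (log2 fold change -0.99 ± 0.26, adjusted p = 0.232) and passed with the block (adjusted p = 0.0361). For none of these 4 genes did the ventral groups overlap. In the list of PI3-kinase, AKT and mTOR genes the median was -0.08, and -0.07 over the 37 of 40 members detected in both groups. The other 3 were kept through the virgin arrays alone. Of the 40, 27 were lower, and 6 of them (15.0%, against 5.82% of all genes) over 1.5-fold without overlap against 2 higher. Besides Pik3ip1 and Nuak1 these held the insulin-like growth factor receptor Igf1r, at 2372 and 2133 in virgin and 1617 and 964 in 16 dpc cells (log2 fold change -0.85 ± 0.23, adjusted p = 0.248). Txnip, a brake on glucose uptake, stood at 20168 and 16881 in virgin and 11269 and 12422 in 16 dpc cells. Irs2, which links insulin receptors to PI3-kinase, was present on both virgin arrays at 327 and 322 and on neither 16 dpc ventral array, where it read 147 and 8.72. By mean log2 signals it was 9.06-fold lower, with log2 fold changes of -1.15 and -5.21 within replicates 1 and 2. Ddit4, a stress-induced inhibitor of mTOR, stood at 9286 and 8616 in virgin and 6424 and 6659 in 16 dpc cells, and its difference did not reach 1.5-fold.

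Genes for making nucleotides stood higher at 16 dpc as a family. Of the enzymes of purine and pyrimidine synthesis, 20 of 22 members kept were higher, with a median log2 fold change of 0.42 (0.15 and 0.66 within replicates 1 and 2). Ctps, which makes CTP, stood at 1032 and 677 in virgin and 1556 and 1874 in 16 dpc cells (log2 fold change 1.03 ± 0.23, adjusted p = 0.171), and it was the member with the smallest p. Dut, which keeps uracil out of DNA, stood at 1597 and 1674 in virgin and 2105 and 2863 in 16 dpc cells. Gmps, the last enzyme on the way to GMP, stood at 1455 and 1403 in virgin and 1879.7 and 2173 in 16 dpc cells. Gart, a multi-step enzyme of purine synthesis, stood at 1049 and 1107 in virgin and 1504 and 1449 in 16 dpc cells. All 4 had both 16 dpc arrays above both virgin arrays, but of these only Ctps and Dut exceeded 1.5-fold, and none of the 4 passed the adjusted test. In all, 4 members (18.2%) were over 1.5-fold higher without overlap, and 1 (4.55%), the nucleoside diphosphate kinase Nme1, was lower. The upstream sequences of this family were searched for CACGTG, the E-box read by MYC and other basic helix-loop-helix factors, because the members stood higher together. Of 20 kept members with a RefSeq promoter entry, 5 held it within 250 bases before the start of the gene (25%, counted per gene), against 10.1% of the 8755 genes described that had an entry, and 6.02% of all 32851 upstream windows held it. The motif reads alike on both strands. Windows of 3 of these 5 genes are shown, with the motif in capitals, from RefSeq on GRCm38.p6. They lie at chr5:76951052-76951301 (plus strand) for Paics, which joins carbon dioxide and aspartate to the purine ring, chr5:30073626-30073875 (minus strand) for Tyms, thymidylate synthase, and chr1:93801935-93802184 (minus strand) for Dtymk, thymidylate kinase.
Paics: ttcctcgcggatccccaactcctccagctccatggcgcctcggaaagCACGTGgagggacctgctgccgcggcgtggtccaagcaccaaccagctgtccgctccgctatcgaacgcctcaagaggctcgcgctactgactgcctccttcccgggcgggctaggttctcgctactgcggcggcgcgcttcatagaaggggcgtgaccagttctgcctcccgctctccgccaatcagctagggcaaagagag
Tyms: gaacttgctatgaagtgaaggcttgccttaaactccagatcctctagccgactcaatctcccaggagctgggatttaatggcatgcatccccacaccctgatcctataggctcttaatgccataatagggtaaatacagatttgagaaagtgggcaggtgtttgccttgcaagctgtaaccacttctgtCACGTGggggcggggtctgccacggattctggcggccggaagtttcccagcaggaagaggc
Dtymk: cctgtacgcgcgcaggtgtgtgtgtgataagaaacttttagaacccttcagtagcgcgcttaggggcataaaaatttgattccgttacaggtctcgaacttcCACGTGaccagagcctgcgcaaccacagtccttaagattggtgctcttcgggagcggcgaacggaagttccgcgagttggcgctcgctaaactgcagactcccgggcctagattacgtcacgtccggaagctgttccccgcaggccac
The motif begins 203, 61 and 148 bases before the gene starts of Paics, Tyms and Dtymk. The 5 genes, named here for their sequences and not for their values, did not move alike. Paics stood at 11457 and 11433 in virgin and 10641 and 11617 in 16 dpc cells. Nme1 stood at 5879 and 3953 in virgin and 2873 and 1848 in 16 dpc cells. Dtymk stood at 2355 and 2578 in virgin and 2947 and 4302 in 16 dpc cells. Tyms, a dim gene, stood at 44.9 and 41.6 in virgin and 65.2 and 76.9 in 16 dpc cells. Atic, the last enzyme of purine synthesis, had a log2 fold change of 0.34 ± 0.20. A match is a stretch of letters and says nothing of whether a factor binds there.

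Nuclear transport, tRNA charging and splicing genes stood higher by small amounts in most members, whereas genes with Rpl and Rps symbols did not. These were grouped by the letters of the symbol alone. Besides ribosomal proteins they can therefore include kinases whose symbols also begin with Rps. Of the genes with Rpl and Rps symbols, 18 of 23 and 20 of 27 were lower, with medians of -0.11 and -0.10. The direction rests on replicate 1, with medians of -0.26 for both, against 0.03 and 0.04 within replicate 2. Of nuclear pore proteins and transport factors, 43 of 46 kept members were higher, with a median of 0.32 (0.19 and 0.46 within replicates). Kpna2, an importin that carries proteins into the nucleus, stood at 2989.7 and 2806 in virgin and 4598 and 5142 in 16 dpc cells (log2 fold change 0.75 ± 0.16, adjusted p = 0.142). Ranbp1, a regulator of the Ran cycle, stood at 4242 and 4242 in virgin and 5824 and 6669 in 16 dpc cells. The export receptor Xpo1 stood at 2959 and 2393 in virgin and 3779 and 3969 in 16 dpc cells. The importin Ipo7 stood at 3540.2 and 3894 in virgin and 4903 and 5418 in 16 dpc cells, but its 1 other detected probe set did not move the same way. The 16 dpc arrays lay above the virgin arrays for all 4, but Kpna2 was the only member over 1.5-fold, 2.17% of the list, which is below the 4.67% of all genes. Of the aminoacyl-tRNA synthetases, which charge tRNAs with their amino acids, 17 of 19 were higher with a median of 0.30, and none was over 1.5-fold without overlap. Aars, for alanine, stood at 867 and 998 in virgin and 1243 and 1442 in 16 dpc cells. Gars, for glycine, stood at 2489 and 2289 in virgin and 3255 and 3165 in 16 dpc cells. Mars1, for methionine, stood at 1336 and 1138 in virgin and 1667 and 1755 in 16 dpc cells. Of the splicing factors 42 of 43 were higher, with a median of 0.16 that was 0.05 and 0.32 within replicates 1 and 2. In 16 dpc dorsal over virgin ventral cells the medians were also above 0. They were 0.18 for splicing, 0.21 for the synthetases, 0.19 for nuclear transport and 0.28 for nucleotide synthesis. Srsf10, an SR protein, stood at 2560.1 and 2642 in virgin and 3348 and 4252 in 16 dpc cells. Snrpa1, of the U2 particle, stood at 2589 and 1801 in virgin and 2881 and 3247 in 16 dpc cells.

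Folding and mitochondrial genes showed the same kind of shift, with named exceptions. In the list of endoplasmic reticulum folding factors and unfolded protein response genes, 21 of 29 members were higher (median 0.28, 0.09 and 0.45 within replicates). Pdia3, a disulphide isomerase that folds glycoproteins and loads MHC class I, stood at 3319 and 3204 in virgin and 6444 and 5489.6 in 16 dpc cells (log2 fold change 0.87 ± 0.15, adjusted p = 0.0936). Manf, a secreted stress protein of this compartment, stood at 2072 and 1888 in virgin and 2594 and 3295 in 16 dpc cells. Pdia4 stood at 917 and 818 in virgin and 1199 and 1291 in 16 dpc cells. Herpud1, which serves degradation of misfolded proteins, ran against the list with 5324 and 3943 in virgin and 2881 and 2806 in 16 dpc cells (log2 fold change -0.69 ± 0.18, adjusted p = 0.23). Of the cytosolic chaperones, 28 of 34 were higher with a median of 0.21. Hspd1, a mitochondrial chaperonin that the list also holds, stood at 4429 and 4637 in virgin and 6726 and 6252 in 16 dpc cells. The stress-inducible Hspa1a stood at 5085 and 5520.0 in virgin and 3424 and 3805 in 16 dpc cells. Hspb1 stood at 17246 and 17563 in virgin and 12159 and 14302 in 16 dpc cells. Both heat shock genes were lower without overlap. In the list of mitochondrial ribosome and import genes, 34 of 42 were higher (median 0.19), among them the import chaperone Timm8a1 at 2002 and 1658 in virgin and 2791 and 2834 in 16 dpc cells (log2 fold change 0.63 ± 0.15, adjusted p = 0.216). In the citric acid cycle 22 of 24 were higher (median 0.19), and Pcx, which feeds the cycle with oxaloacetate, stood at 634 and 515 in virgin and 1131 and 870.5 in 16 dpc cells (log2 fold change 0.80 ± 0.20, adjusted p = 0.229). Fh1, fumarase, stood at 3344 and 2890.1 in virgin and 4354 and 4296 in 16 dpc cells. Fatty acid oxidation had 18 of 23 members higher, and its median of 0.27 came mostly from the replicate 1 arrays (0.46 and 0.02). Decr1, which handles unsaturated fatty acids, stood at 1005 and 1686 in virgin and 2411 and 2227 in 16 dpc cells. Pdk4, the kinase that inhibits pyruvate dehydrogenase, stood at 226 and 562 in virgin and 85.8 and 43.3 in 16 dpc cells (log2 fold change -2.55 ± 0.55, adjusted p = 0.148), the opposite direction.

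**Figure D3:**
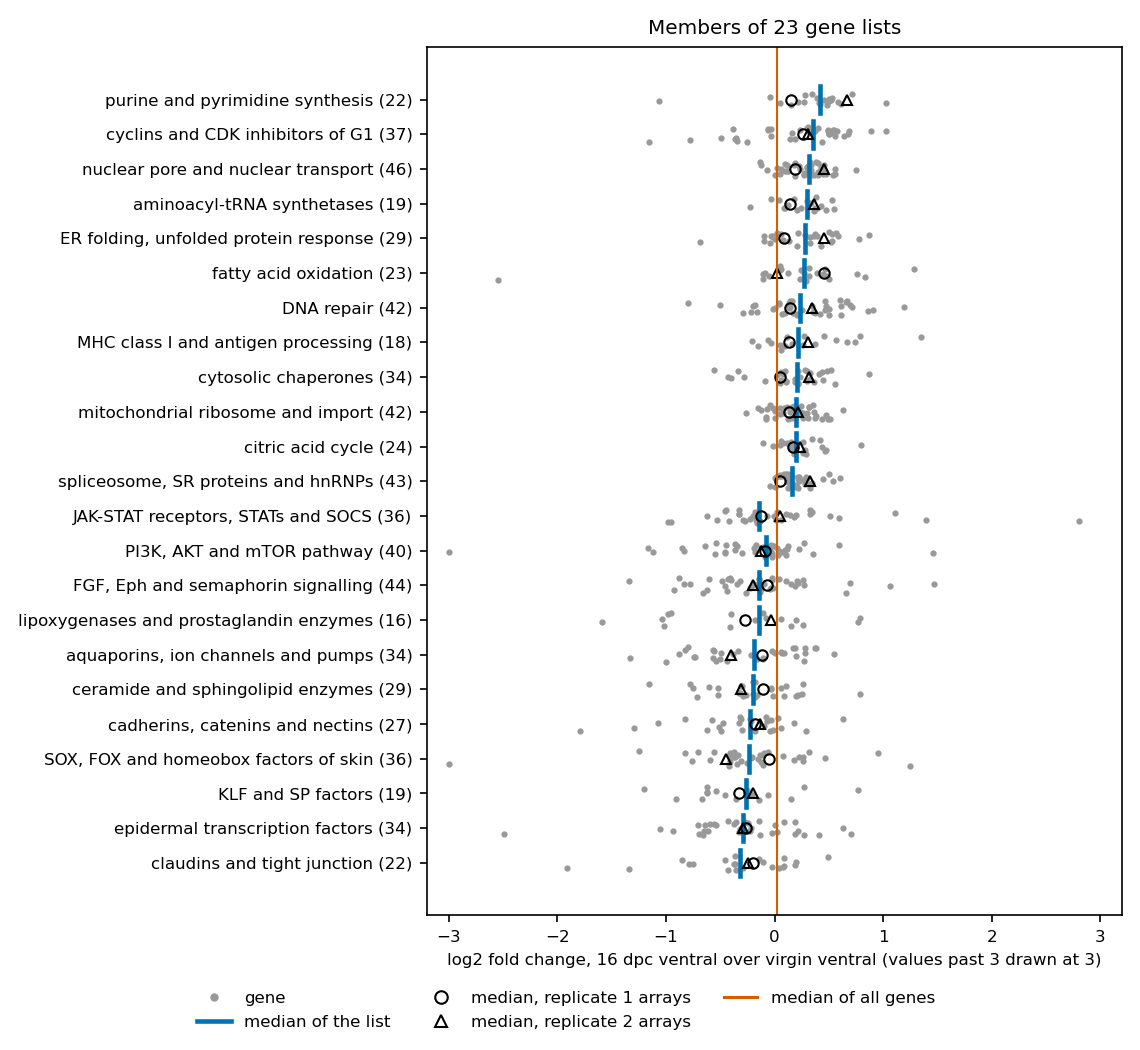
Log2 fold change of each kept member (grey points) of 23 gene lists in 16 dpc ventral over virgin ventral cells, with the number of members in brackets, the list median as a blue bar and the medians within replicate 1 (circle) and replicate 2 (triangle). Of the values, 2 lay below -3 and are drawn there. The orange line is the median of all genes, 0.02. The 12 upper lists have medians above it and the 11 lower lists below it.

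Cell division and genome maintenance genes were higher by larger amounts in single members. In the list of G1 cyclins, CDK inhibitors and their partners, 25 of 37 were higher with a median of 0.36 (0.26 and 0.31 within replicates), which fell to 0.12 without virgin ventral replicate 1 and 0.10 without 16 dpc ventral replicate 2 and reached 0.50 without 16 dpc ventral replicate 1. Ccne2, cyclin E2, stood at 466 and 700.1 in virgin and 817 and 1377 in 16 dpc cells, with no overlap. Cks1b, a small partner of the CDKs, stood at 2603 and 2841 in virgin and 3624 and 4376 in 16 dpc cells. Its relative Cks2 stood at 2462 and 2882 in virgin and 3302 and 5546 in 16 dpc cells. A pair of CDK inhibitors stood lower. Cdkn2b, p15, stood at 545 and 567 in virgin and 276 and 224 in 16 dpc cells (log2 fold change -1.16 ± 0.23, adjusted p = 0.118). Cdkn1b, p27, stood at 2145 and 2486 in virgin and 1788 and 1745 in 16 dpc cells. Neither showed overlap of the groups. Among DNA repair genes 34 of 42 were higher (median 0.23, and 0.42 without 16 dpc ventral replicate 1), and 7 (16.7%) were over 1.5-fold higher without overlap against 1 lower. Ung, which removes uracil from DNA, stood at 977 and 1041 in virgin and 1392 and 1841 in 16 dpc cells. The exonuclease Exo1 stood at 93.5 and 182 in virgin and 257 and 345 in 16 dpc cells. Xpa, which verifies damage in nucleotide excision repair, was the exception with 358 and 554 in virgin and 224 and 293 in 16 dpc cells. Of the chromatin genes 26 of 37 were higher (median 0.12). Uhrf1, which keeps DNA methylation through replication, stood at 1073 and 1857 in virgin and 2231 and 3832 in 16 dpc cells. Hells, a chromatin remodeller with the same task, stood at 796 and 1159 in virgin and 1476 and 2318 in 16 dpc cells. Both passed with the replicate block (adjusted p = 0.0303 and 0.0447) and not without it (0.379 and 0.339). Cbx7, a Polycomb subunit, was lower at 554 and 553 in virgin and 351 and 331 in 16 dpc cells. Satb1, a genome organizer, stood at 3121 and 2643 in virgin and 1998 and 1723 in 16 dpc cells, also lower without overlap. Families were also formed from the letters of the gene symbols, with at least 8 kept members each (178 families). Among them the Mcm symbols ranked highest, 9 of 10 higher with a median of 0.70. This family holds the Mcm helicase genes but, being formed by letters alone, is not limited to them. Mcm5 stood at 1915 and 3030.0 in virgin and 4508 and 6435 in 16 dpc cells and passed with the block (adjusted p = 0.0303). The Haus genes, subunits of the augmin complex of the spindle, had 6 of 8 higher and a median of 0.41, and Haus4 stood at 411 and 639.5 in virgin and 706 and 888 in 16 dpc cells. The Utp genes of the small ribosomal subunit precursor had 9 of 11 higher (median 0.29).

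Amino acid supply divided by transporter. The Slc7 family ranked second among the symbol families with a median of 0.47 over 8 genes, 1 of which, Slc7a6os, is named after its neighbour and is no transporter. Slc7a5, which imports large neutral amino acids, stood at 1511 and 510.2 in virgin and 1939.9 and 2334 in 16 dpc cells (log2 fold change 1.28 ± 0.41, adjusted p = 0.282), with the virgin arrays far apart from each other. Slc7a1, which imports arginine and lysine, stood at 2026 and 1738 in virgin and 2535 and 3452 in 16 dpc cells. Slc3a2, the partner chain of Slc7a5, stood at 2787 and 2416 in virgin and 3682 and 3216 in 16 dpc cells. Other carriers were lower. Slc43a2 stood at 343 and 387 in virgin and 202 and 71.7 in 16 dpc cells and was present on 1 of the 16 dpc arrays. Slc1a1, a glutamate importer, stood at 158 and 111 in virgin and 44.1 and 58.7 in 16 dpc cells. Slc6a15 was present only in virgin cells (at least 5.14-fold lower). Over the whole list of 25 kept amino acid transporters 11 were higher and 14 lower. Its median of -0.10 changed sign in 3 of 16 alternatives and is given with no direction.

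Epidermal transcription factors stood lower on balance. Of 34 kept, 24 were lower with a median of -0.29 (-0.26 and -0.29 within replicates), and 9 (26.5%) were over 1.5-fold lower without overlap against 5.82% of all genes. Ovol2, a zinc finger repressor that keeps epithelial cells epithelial, stood at 802 and 804 in virgin and 408 and 369 in 16 dpc cells (log2 fold change -1.05 ± 0.19, adjusted p = 0.0951) and passed with the replicate block (adjusted p = 0.0447). Pou3f1, a POU factor of differentiating keratinocytes, stood at 7996 and 7379 in virgin and 4570.3 and 5273 in 16 dpc cells, and the dorsal 16 dpc arrays stood higher than both ventral groups at 9059 and 9231. Tfap2b stood at 2471 and 2831 in virgin and 1529 and 1892 in 16 dpc cells. Zfp750, a regulator of terminal differentiation, stood at 1940.2 and 2059.8 in virgin and 1049 and 1527 in 16 dpc cells, again with no overlap. Trp73, a relative of p53 and p63, was an exception at 365 and 389 in virgin and 564 and 603 in 16 dpc cells. Krüppel-like and Sp factors shared the direction. Of these, 16 of 19 were lower (median -0.26, -0.33 and -0.20 within replicates), and 6 (31.6%) were over 1.5-fold lower without overlap. Klf6 stood at 5359 and 5043 in virgin and 3339.7 and 3422 in 16 dpc cells (log2 fold change -0.62 ± 0.16, adjusted p = 0.232). Sp6, which acts in skin appendages, stood at 484 and 560.0 in virgin and 226 and 226 in 16 dpc cells. Klf7 stood at 635 and 447 in virgin and 330.3 and 362 in 16 dpc cells. Klf5, a factor of dividing keratinocytes, stood at 8583 and 10686 in virgin and 6827 and 6329 in 16 dpc cells, but its log2 fold change was 0.49 when all probe sets were averaged. The suprabasal markers were lower as well (median -0.32), and their part in these lists was not tested.

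Of the Sox, Fox and homeobox factors 27 of 36 were lower (median -0.24), mostly on the replicate 2 arrays (-0.05 and -0.45). Of the 36, 3 were kept through the virgin arrays alone, and the median over the 33 detected in both groups was -0.22. Foxa1, a pioneer factor of glandular epithelium, was present on both virgin arrays at 77.4 and 137 and called so on neither 16 dpc array (4.61 and 9.89), at least 11.5-fold lower. Keratins of glandular and other simple epithelium were lower too, although the caseins Csn1s1, Csn1s2a and Csn2, described below, were higher. The groups overlapped for the casein Csn3, at 79.4 and 129 in virgin and 646 and 112 in 16 dpc cells. Krt8 stood at 219.6 and 474 in virgin and 104 and 9.98 in 16 dpc cells (present on 1 of the 16 dpc arrays). Krt18 stood at 161 and 413 in virgin and 94.3 and 47.6 in 16 dpc cells. Krt19 stood at 110.1 and 282 in virgin cells and was called absent at 16 dpc, at least 8.32-fold lower. In the Krt symbol family 21 of 26 kept genes were lower, but 5 of the 26 were kept through the virgin arrays alone and 2 through the 16 dpc arrays alone, and the median over the 19 detected in both groups was -0.19. Krt2, given above, was opposite and passed with the block (adjusted p = 0.026, against 0.0517 without it). Foxq1 stood at 1964 and 1144 in virgin and 869 and 822 in 16 dpc cells. Meis1, a homeobox factor, was higher at 453 and 361 in virgin and 646 and 946 in 16 dpc cells, near its dorsal values of 691 and 874.

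Genes of cell contacts were lower on balance. Of the claudins and other tight junction genes 15 of 22 were lower (median -0.32), and 4 (18.2%) were over 1.5-fold lower without overlap, with 0 higher. Cldn23 stood at 375 and 364 in virgin and 114 and 84.9 in 16 dpc cells (log2 fold change -1.91 ± 0.34, adjusted p = 0.0936) and passed with the block (adjusted p = 0.0321). Cldn4 stood at 824 and 1248 in virgin and 559 and 285 in 16 dpc cells. Marveld2, which seals 3-cell contacts, stood at 1471 and 1516 in virgin and 948 and 718 in 16 dpc cells. The junction plaque protein Cgn stood at 434 and 556 in virgin and 354 and 239.7 in 16 dpc cells. Among cadherins, catenins and nectins 22 of 27 were lower (median -0.22), with 5 (18.5%) over 1.5-fold lower without overlap and 1 higher. Besides L1cam, which fell, these were Afdn, Nectin4, Nectin3 and Pcdh1. Afdn, the afadin that ties nectins to actin, stood at 5275 and 5730.5 in virgin and 3715 and 3439 in 16 dpc cells. Nectin4 stood at 789 and 1045 in virgin and 607 and 430.5 in 16 dpc cells. Nectin3 stood at 184 and 205 in virgin and 101 and 31.0 in 16 dpc cells. Pcdh1 stood at 192 and 375 in virgin and 135 and 88.0 in 16 dpc cells. Fat2, a giant protocadherin of moving epithelial cells, was the 1 member that stood higher, at 1751 and 1772 in virgin and 2462 and 3019 in 16 dpc cells. Gap junction genes were too few for a statement on the family, with 7 kept. Gjb6 stood at 119.9 and 216 in virgin and 257 and 305 in 16 dpc cells. Gjb2 stood at 161 and 689 in virgin and 229 and 129.9 in 16 dpc cells and its groups overlapped, with 1 high virgin array.

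**Figure D4:**
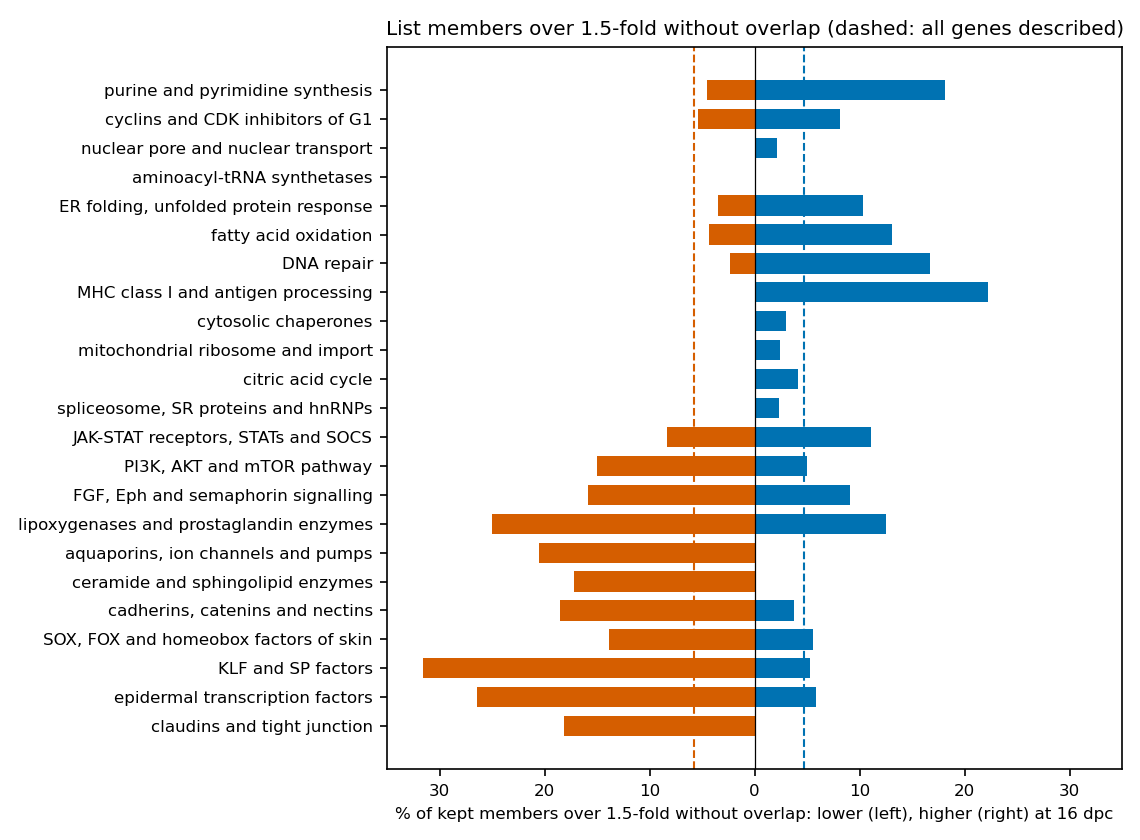
Share of kept members that were over 1.5-fold higher (blue, right) or lower (orange, left) at 16 dpc without overlap of the ventral groups, for the same 23 lists, in percent from 0 in both directions. Dashed lines give the shares over all genes described, 4.67% and 5.82%. Factors of the Klf and Sp kind reach 31.6% on the lower side, and MHC class I and antigen processing reaches 22.2% on the higher side.

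Signals that guide cells and vessels were mixed within their list. Of the FGF, Eph and semaphorin genes 32 of 44 were lower (median -0.15). Fgfbp1, which releases FGFs from the matrix, stood higher at 5959 and 5535 in virgin and 9139.9 and 9027 in 16 dpc cells (log2 fold change 0.66 ± 0.14, adjusted p = 0.148). Sema3d, a secreted semaphorin, stood at 2915 and 3705 in virgin and 1520.0 and 2103 in 16 dpc cells and passed with the block (adjusted p = 0.0361). Sema3e stood at 358 and 409 in virgin and 294 and 158 in 16 dpc cells, but at a log2 fold change of 0.11 when all probe sets were averaged. The receptor Epha2 stood at 922 and 1075 in virgin and 731 and 584 in 16 dpc cells. In proteolysis of the matrix, 11 of 30 genes on the array were kept and their median was 0.01. Mmp2, gelatinase A, stood at 878 and 1287 in virgin and 2543 and 2939 in 16 dpc cells (log2 fold change 1.36 ± 0.22, adjusted p = 0.0651). Plau, the urokinase that activates plasminogen, stood at 249 and 163 in virgin and 641 and 506 in 16 dpc cells. Both passed with the block (adjusted p = 0.0321 and 0.026). The dorsal 16 dpc arrays read 1340.0 and 1079.6 for Mmp2, near virgin, and 611 and 519 for Plau, near ventral 16 dpc. The part of the fibroblast markers was not tested, and Thy1 made up most of their higher sum on the 16 dpc ventral arrays.

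Ceramide and sphingolipid enzymes and ion channels stood lower on balance, while other lipid genes were mixed. In the list of ceramide and sphingolipid enzymes 21 of 29 were lower (median -0.20, -0.10 and -0.31 within replicates), and 5 (17.2%) were over 1.5-fold lower without overlap. Besides Smpdl3a these included the ceramidase Acer2 at 727 and 945 in virgin and 516 and 468 in 16 dpc cells. Cyp4f39, which makes the long hydroxy acids of barrier ceramides, stood at 1147 and 1184 in virgin and 779 and 651 in 16 dpc cells. Sphk2 stood at 1249 and 1532 in virgin and 995 and 834 in 16 dpc cells. Of the lipoxygenase and prostaglandin genes 10 of 16 were lower, 4 of them (25%) over 1.5-fold without overlap against 2 (12.5%) higher. Alox12 stood at 327 and 547 in virgin and 222 and 192 in 16 dpc cells. Hpgds, which makes prostaglandin D, stood at 693 and 1289 in virgin and 397 and 247 in 16 dpc cells. Alox5, a lipoxygenase of leukocytes, stood higher at 87.2 and 94.1 in virgin and 144 and 169.6 in 16 dpc cells, and was present on 1 of the virgin arrays. Its activator Alox5ap stood at 157 and 167 in virgin and 319 and 240.1 in 16 dpc cells. Elovl5, which lengthens polyunsaturated fatty acids, stood at 1434 and 1227 in virgin and 1919 and 1889 in 16 dpc cells, opposite to the desaturase Scd2. Of the elongases and desaturases 6 were higher and 8 lower, and the sign of their median changed between alternatives. Of ion channels, pumps and aquaporins 21 of 34 were lower (median -0.19), and 7 (20.6%) were over 1.5-fold lower without overlap against 0 higher. Atp1b1, a subunit of the sodium pump, stood at 6438 and 4281 in virgin and 3281 and 2782 in 16 dpc cells (log2 fold change -0.80 ± 0.21, adjusted p = 0.243). Clca1 stood at 253 and 292 in virgin and 113 and 104 in 16 dpc cells. The cotransporter Slc12a2 stood at 6688 and 7777 in virgin and 4889 and 5017 in 16 dpc cells.

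Defence and survival genes held a few members that stood out. In the list of MHC class I and antigen processing 14 of 18 were higher (median 0.21, 0.13 and 0.31 within replicates), and 4 (22.2%) were over 1.5-fold higher without overlap. Tap2, which pumps peptides to class I molecules, stood at 1526 and 1229.6 in virgin and 2579 and 2161 in 16 dpc cells (log2 fold change 0.79 ± 0.18, adjusted p = 0.184). The immunoproteasome subunit Psmb10 stood at 763 and 583 in virgin and 1075 and 1153 in 16 dpc cells. The trimming peptidase Erap1 stood at 589 and 370.4 in virgin and 752 and 736 in 16 dpc cells. The summed antigen-presenting cell markers given above were also higher on both 16 dpc arrays, and their part was not tested. Of 42 chemokine and receptor genes on the array 13 were kept, 4 higher and 9 lower (median -0.22). Of the 13, 3 were kept through the 16 dpc arrays alone. Over 1.5-fold without overlap, 2 (15.4%, against 4.67% of all genes) were higher and 1 (7.69%, against 5.82%) was lower. The gene that was lower was Cxcl9, at 282 and 184 in virgin and 164 and 135 in 16 dpc cells. Cxcl14, a chemokine of resting epithelium, stood at 3159 and 2557 in virgin and 5125 and 5887 in 16 dpc cells (log2 fold change 0.95 ± 0.16, adjusted p = 0.0854) and passed with the block (adjusted p = 0.0452). Among BCL2 family and caspase genes, Bcl2l15 stood at 132 and 214 in virgin and 704 and 1180.2 in 16 dpc cells (log2 fold change 2.44 ± 0.49, adjusted p = 0.124) and passed with the block (adjusted p = 0.0108). Casp12 stood at 153 and 140.5 in virgin and 250.2 and 332 in 16 dpc cells. Bmf, which promotes cell death after loss of attachment, stood lower at 649 and 914 in virgin and 444 and 457 in 16 dpc cells, but averaging all probe sets gave a log2 fold change of 0.26.

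**Figure D5:**
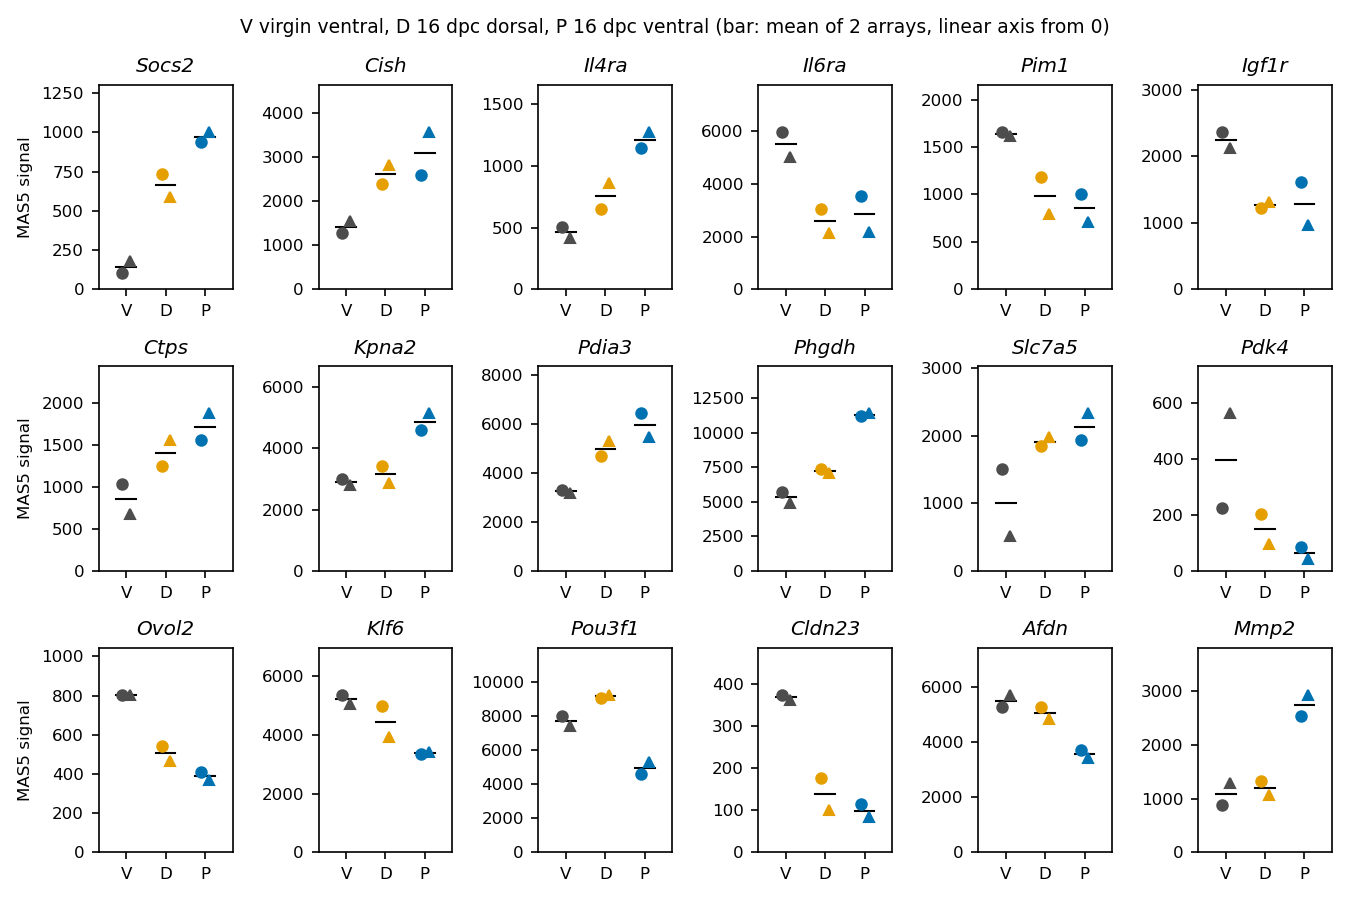
MAS5 signal (linear axis from 0) of 18 genes named in the text on each array of virgin ventral (V), 16 dpc dorsal (D) and 16 dpc ventral (P) cells, with a circle for replicate 1, a triangle for replicate 2 and a bar at the mean of 2 arrays. Among the panels, only Socs2, Il4ra and Phgdh passed the adjusted test of the ventral groups, and Pou3f1 and Mmp2 show dorsal arrays that stay at or above the virgin level for Pou3f1 and near it for Mmp2.

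Some genes were detected in 1 ventral group alone. In 16 dpc cells, 146 genes were present on both arrays and on neither virgin array, and in virgin cells 92 genes were so. Because such a gene has only a bound in the dim group, folds are given as at least values. They compare mean log2 signals of the 2 arrays of each group. A dim signal under the lowest signal called present on its array (6.34 to 8.09 on the ventral arrays) was raised to that signal. Where the dim signals lay above it, as for Irs2 and Cck, the at least value equals the plain fold and does not bound single arrays. With a mean of at least 200 in the bright group, 22 genes remained on the 16 dpc side. Csn1s2a, a milk casein, had the largest bound. It read 43.3 and 2.73 in virgin cells and 4070.1 and 397 at 16 dpc (at least 76.7-fold higher), with 133 and 161 on the dorsal arrays. The casein gene Csn1s1 read 64.6 and 26.5 in virgin cells and 1031 and 186 at 16 dpc (at least 10.6-fold higher), with 94.2 and 125 on the dorsal arrays. The first 16 dpc array was several times brighter than the second for both. Csn2, present on 1 virgin array, showed the same arrangement with 172 and 2.29 in virgin and 6185 and 699 in 16 dpc cells. Since caseins are classical targets of prolactin and STAT5, their upstream windows were searched for TTCNNNGAA, the core motif of STAT factors, in which N is any base and which reads alike on both strands. It stood in the windows of 2 of the 3 casein genes searched, which did not include Csn3. These were Csn1s1 at chr5:87665958-87666207 (plus strand) and Csn2 at chr5:87699426-87699675 (minus strand), 100 and 93 bases before the starts. The motif stood in 7.02% of all upstream windows. It was found in the windows of 1 of the 12 genes past the threshold that had a promoter entry, Pkib, and of 3 of 30 kept JAK-STAT genes. Both windows are shown because these 2 caseins carry the motif, which is in capitals.
Csn1s1: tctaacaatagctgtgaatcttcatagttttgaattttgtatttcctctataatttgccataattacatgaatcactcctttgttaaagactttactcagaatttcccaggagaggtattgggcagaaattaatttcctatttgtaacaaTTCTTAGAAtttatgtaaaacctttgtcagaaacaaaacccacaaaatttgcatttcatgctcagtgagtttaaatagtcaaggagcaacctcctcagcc
Csn2: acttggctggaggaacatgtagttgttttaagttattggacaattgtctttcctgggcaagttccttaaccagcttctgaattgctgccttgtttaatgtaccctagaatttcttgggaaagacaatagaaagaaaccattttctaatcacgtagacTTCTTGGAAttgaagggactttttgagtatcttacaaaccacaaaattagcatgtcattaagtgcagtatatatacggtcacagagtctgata
The third motif searched, TGANTCA, the core of AP-1 sites, which also reads alike on both strands, was in 6.75% of all windows and in 1 of the 12, Serpinb12.

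Apart from the caseins, genes detected only at 16 dpc were of several kinds. Cck, the hormone cholecystokinin, read 63.7 and 6.52 against 368 and 161 (at least 12.0-fold) and was as bright on the dorsal arrays at 371 and 191. The cytochromes Cyp1a1, a target of the aryl hydrocarbon receptor, and Cyp2g1 were at least 4.96-fold and 4.72-fold higher. Cd207, langerin, was at least 3.64-fold higher, with 129 and 33.1 in virgin and 304 and 186 in 16 dpc cells. Sgo1, a guardian of centromere cohesion, was at least 3.30-fold higher, Ccl20, the ligand of CCR6, at least 3.02-fold and Rgs16, a regulator of G proteins, at least 2.60-fold. Lce1h, a late envelope gene, was at least 2.40-fold higher but its groups overlapped (291 and 85.7 against 274 and 526). On the virgin side 12 genes had a bright mean of at least 200. Irs2 led them, followed by Arg1, arginase, at 169 and 289 against 83.3 and 61.0 (at least 3.10-fold lower), Wipf3 (at least 1.92-fold) and Iqsec2 (at least 1.58-fold). Pck2, Trib3, Cplx2, Adcy5, Snx30 and Wwp2 were at least 1.46-fold, 1.45-fold, 1.34-fold, 1.31-fold, 1.20-fold and 1.12-fold lower, bounds that are small, and a call of absent there does not mean that the gene was off. The groups overlapped for Adcy5, which stood higher at 16 dpc within replicate 2, at 251 against 218.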

How the data were processed

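Live integrin α6-positive cells of mouse epidermis were hybridised to Affymetrix 3′ expression arrays, 2 per group. The authors made the deposited signal values, linear MAS5 intensities with detection calls, with Affymetrix Expression Console 1, scaled so that the trimmed mean was 500.003 on each of the 6 arrays, which had 21285 to 24053 of 45101 probe sets called present. The authors' value table held the same intensity values. Here, signals were floored at 1 and taken to log2. Of the probe sets, 34945 had 1 gene symbol, 932 several and 9160 none, and 64 were controls; each of the 18193 genes was represented by its brightest probe set. Genes detected throughout 1 or more of the 3 groups (10993) were fitted together in limma 3.58.1 (R 4.3.3; lmFit, eBayes with a variance trend) with no block, and p-values were adjusted by Benjamini-Hochberg at 0.05. Scripts were tested on simulated data. Genes named were those past the threshold, the 6 with the smallest p of each list described, up to 10 genes a direction detected in 1 group, by the size of the bound, and up to 3 of each of the 5 highest and 5 lowest symbol families; exceptions are marked. The genes and lists were chosen with earlier results of these data known. Alternatives covered the block, the samples fitted, the variance trend, normalization, probe sets, detection filter, floor and each array left out. Promoter windows were the 250 bases before each gene start in RefSeq (GRCm38.p6), searched for 3 motifs.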

Additional observations from a re-analysis of the deposited data

How the results depend on the processing

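The test of single genes depended strongly on the settings and on single arrays, whereas most family medians kept their sign. Against 15 genes higher and 7 lower, the counts were 54 and 32 with the replicate block, 26 and 20 with only the 4 ventral arrays, 9 and 3 after quantile normalization, 4 and 1 when probe sets were averaged, and 0 and 0 both without the variance trend and with a floor of 32. Leaving out 1 array gave 1 to 30 genes higher and 0 to 29 lower. The few calls came without virgin ventral replicate 2 (1 and 0), without 16 dpc ventral replicate 2 (2 and 0) and without 16 dpc ventral replicate 1 (3 and 3), and leaving out virgin ventral replicate 1 gave 11 and 1. The many came without dorsal replicate 1 (30 and 29) or 2 (24 and 20). The lone array left in a group was assumed to vary like the other groups. The cause of these changes was not tested. Of genes over 1.5-fold without overlap, 502 higher and 626 lower became 1390 and 1831 without the detection filter, and 513 to 919 and 622 to 1142 when 1 ventral array was left out, where a group of 1 array overlaps less easily. Same-numbered arrays share a prefix in their file headers. Over 9700 genes their deviations correlated at 0.0145 for virgin and 16 dpc ventral and 0.0188 for virgin and dorsal, but at 0.554 for the 16 dpc groups. The numbers were therefore not taken to pair virgin with 16 dpc samples. Whether they pair the 16 dpc dorsal and ventral samples is not given by the labels, and the fit without block leaves this out. Medians of 25 of the 30 gene lists described kept their sign under every alternative run, and those of amino acid transporters, BCL2 family and caspases, fatty acid elongases and desaturases, connexins, and matrix metalloproteases did not. The sizes were less stable, and leaving out 1 ventral array moved the medians of 5 to 9 of the 30 lists by more than the replicate spread. Over all alternatives the medians ran from 0.27 to 0.55 for nucleotide synthesis, 0.17 to 0.43 for nuclear transport, 0.06 to 0.28 for splicing, 0.07 to 0.42 for fatty acid oxidation, 0.03 to 0.21 for chromatin, -0.41 to -0.26 for Klf and Sp factors and -0.36 to -0.17 for tight junctions. Of the genes named, Rspo3 (0.27), Bmf (0.26), Klf5 (0.49) and Sema3e (0.11) turned direction when probe sets were averaged, and with 1 array left out Gjb2 ran from -1.999 to 0.10 (without virgin ventral replicate 2) and Adcy5 from -0.79 to 0.0073 (without 16 dpc ventral replicate 1). Outside the 22 genes past the threshold, further detected probe sets did not always move with the one used. Among these genes were Gmps, Exo1 and Hells, each with 1 of 2 further probe sets in the same direction. With 2 arrays a group, precision is limited by their number.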

Other observations

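The other 25 gene lists examined had median log2 fold changes between -0.11 and 0.13 and are given as values. Members were higher in number than lower for secretory pathway entry and glycosylation, 31 of 37 (median 0.13), and for metallothioneins and metal ion handling, 17 of 22 (median 0.12), but none of the former was over 1.5-fold without overlap. Autophagy genes had 12 of 37 (median -0.08) higher, p53 target genes 11 of 32 (median -0.11) and lysosomal hydrolases and cathepsins 14 of 42 (median -0.06). Translation factors had 25 of 39 (median 0.07) higher, and none differed over 1.5-fold without overlap in either direction. In limma, the 16 dpc dorsal against virgin ventral contrast, which differs in body site as well as pregnancy, passed 0 genes at the adjusted threshold, with 799 genes at an unadjusted p under 0.05.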
